A study of Saccharomyces cerevisiae with 4 samples.

Results

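The transcript response of Saccharomyces cerevisiae, budding yeast, to heat was measured on 2 of the 4 arrays of a study of heat shock and the plant compound celastrol. Each of these arrays set total RNA of yeast kept at 39 °C for 30 min, in Cy5, against RNA of its own control at 30 °C for the same time, in Cy3, and the deposited value was read as the log2 ratio of 39 °C over 30 °C. The other 2 arrays compared 10 µM celastrol for 1 h with its solvent DMSO in the same dye layout. They entered only the estimate of the spread and a few side-by-side values. Strain, genotype, medium and growth phase were not given in the sources used here, and no array had its dyes swapped. A dye effect of a probe therefore adds to its ratio and cannot be told apart from the treatment. The array held 6415 probes, of which 5619 were annotated with exactly 1 gene. These covered 5477 genes, and 5403 of them had a value on both heat shock arrays and were tested. The comparison across genes asks which transcripts stood higher or lower at 39 °C than at 30 °C.

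In yeast, a shift to a higher temperature activates the heat shock factor Hsf1, which drives genes of protein folding, and the paired factors Msn2 and Msn4, which drive a broad programme of carbohydrate, redox and membrane protection genes. The same shift is known to lower transcripts of the translation machinery for a time. Molecular chaperones of the Hsp70, Hsp90 and Hsp100 families bind unfolded proteins and return them to the folded state or pass them on for degradation.

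The replicate arrays differed in the width of their ratios. The SD over the genes tested was 0.913 log2 units on replicate 1 and 0.590 on replicate 2. Across genes, which are not independent replicates and share the arrays' dyes and probes, Pearson's r between the arrays was 0.66 and Spearman's rho 0.604. The sign was the same for 71.0% of the genes tested. Probes without an annotated gene had a median of −0.62 on replicate 1 and −0.10 on replicate 2. From here on, paired values are log2 ratios on replicate 1 and then replicate 2, and folds take the values as base 2, which could be checked on replicate 1 only.

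Above 1 log2 unit lay 496 genes on replicate 1 and 197 on replicate 2, and 150 genes did so on both. Below −1 lay 600 and 247 genes, and 196 did so on both. Of the 50 genes with the highest ratio on each array, 26 were the same. Of the 50 with the lowest, 2 were the same, the ribosomal protein genes RPL9A and RPS4A. The 50 lowest of replicate 2 held 35 ribosomal protein genes and had a median of −1.79 there and −2.03 on replicate 1. The 50 lowest of replicate 1 held 3 ribosomal protein genes and 11 genes known only by a systematic name. Their median was −2.88 there and −0.63 on replicate 2, and all 50 stood below 0 on both arrays. On celastrol replicates 1 and 2 the median of these 50 was −1.19 and −2.25. For the 50 lowest of heat shock replicate 2 it was −0.72 and −1.68. Of all genes tested, 49.6% stood below 0 on both celastrol arrays and 29.0% above 0 on both. Whether the low medians are particular to these genes was not tested. In the limma fit given below, 2 of the 50 lowest of replicate 1 and 43 of the 50 lowest of replicate 2 were called.

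**Figure D1:**
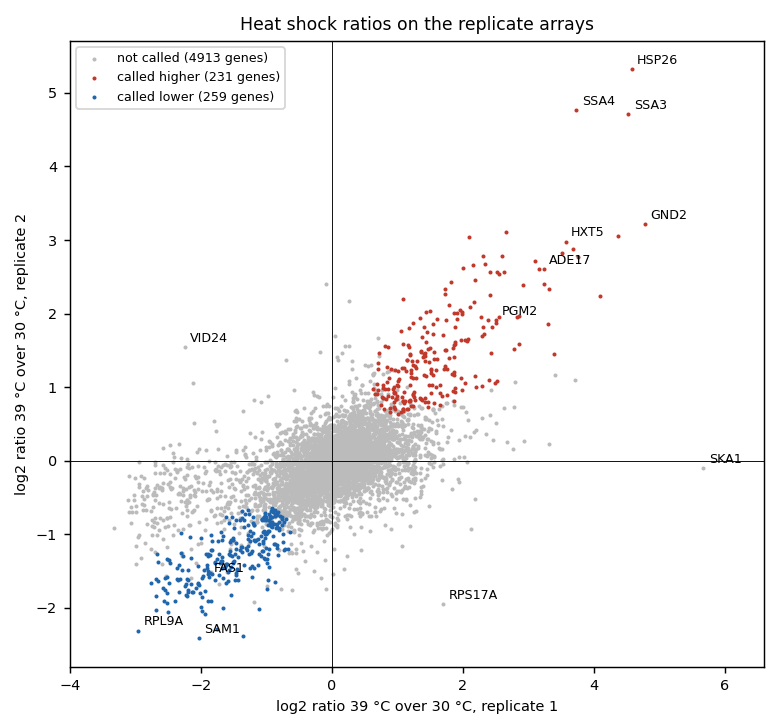
Log2 ratio of 39 °C over 30 °C on replicate 1 (horizontal axis) against replicate 2 (vertical axis), with a point for each of the 5403 genes tested. The 231 genes called higher and the 259 called lower have the same sign on both arrays, and the cloud is wider along replicate 1.

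In limma, with the spread estimated over all 4 arrays, 490 of the 5403 genes (9.07%) had an adjusted p under 0.05. Higher at 39 °C were 231 genes (4.28%) and lower were 259 (4.79%). "Rose" and "fell" are used below for these genes alone, and the 2 percentages are the background for every count of a list's genes that rose or fell. Of all genes tested, 1850 stood above 0 on both arrays and 1984 below, which is the background for the counts of that kind given below. The median ratio of all genes tested was 0.00. Of the 5403 genes, 1645 had an unadjusted limma p under 0.05, which is the background for counts of that kind. Among the genes that rose, 10 exceeded 8-fold, 39 lay between 4- and 8-fold, 134 between 2- and 4-fold and 48 under 2-fold. Among the genes that fell, 24 exceeded 4-fold, 173 lay between 2- and 4-fold and 62 under 2-fold. The smallest mean change called was 0.75 log2 units. After quantile normalization of the 4 arrays the split was 360 higher and 629 lower.

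All counts of called genes rest on the spread shared with the celastrol arrays. A fit with the replicate numbers I and II as a block called 30 genes, 29 higher and 1 lower. With the heat shock arrays fitted alone, or with either celastrol array left out, limma called 0 genes, and 1154 had an unadjusted p under 0.05. Without replicate 1, 387 genes were called, of which 326 were among the 490. Without replicate 2, 1582 were called, of which 479 were among the 490. The remaining array was then assumed to vary like the celastrol arrays. The number called over all genes changed as well. Counts of a list without a replicate are therefore not to be set against the 2 percentages above. They belong beside the number of all genes called without that same replicate. Without replicate 2 that number was much larger than in the main fit and nearly evenly split between higher and lower. A few calls in both directions there are no sign of a response of the list. The design text speaks of independent experiments but not of separate cultures, so the p-values measure the spread between these arrays. Bulk RNA cannot tell fewer cells of a kind from less RNA per cell. Near-identical gene copies, such as paired ribosomal protein genes, can hybridise to each other's probes, so their ratios are uncertain as values of 1 copy.

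Chaperone genes of the cytosol held the 3 highest mean ratios of all genes tested. HSP26, a small heat shock protein that binds unfolded proteins, had ratios of 4.58 and 5.32, with a mean of 4.95 ± 0.53 (SD, n = 2) or 30.9-fold and a limma adjusted p of 0.00943. SSA3 and SSA4, the stress-inducible Hsp70 genes, had 4.53 and 4.71, and 3.73 and 4.77. HSP104, the disaggregase that pulls proteins out of aggregates, had 3.76 and 2.76. All 4 of these genes lay above 2.5 on each array. Of the cytosolic Hsp70 system 4 of 8 genes rose and none fell, with a list median of 1.11. The remaining 2 that rose were the exchange factors SSE2, at 1.87 and 1.61, and SSE1, at 1.42 and 1.35. Of the disaggregase, small heat shock and sorting proteins 6 of 9 rose, among them HSP42 at 1.39 and 1.41 and the DJ-1 family genes HSP31, SNO4 and HSP32. CUR1, a factor that sorts misfolded proteins, had −1.02 and −0.63 and was not called.

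Among Hsp90 and its co-chaperones, 6 of 14 genes rose and none fell. HSP82, the inducible Hsp90, had 2.42 and 2.56, a mean of 2.49 ± 0.10 (SD, n = 2), and HSC82, the constitutive copy, had 0.70 and 1.32. CPR6, a cyclophilin that binds Hsp90, had 2.30 and 2.79. STI1, which links Hsp70 to Hsp90, had 1.90 and 1.93, and the ATPase activators AHA1 and HCH1 had 1.88 and 1.81, and 1.87 and 1.57. These 4 co-chaperone genes stood above HSC82 on both arrays. CDC37, the kinase co-chaperone, at 1.22 and 0.45, and the phosphatase PPT1, at −1.5 and −0.38, were not called.

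Outside the cytosolic stress chaperones, the compartments differed in their counts. Of 17 mitochondrial chaperones and proteases 4 rose, namely HSP78, the mitochondrial disaggregase (2.50 and 1.88), HSP60 and HSP10, which form the folding chamber (2.43 and 1.47, and 1.38 and 1.68), and the Lon protease PIM1 (1.53 and 1.03). The list median was 0.08, and the Hsp70 gene ECM10 had −1.71 and −0.18. None of the 14 genes of the CCT chaperonin and prefoldin, which fold actin and tubulin, and none of 11 cytosolic J-domain genes was called. Of them 3 and 5 had an unadjusted limma p under 0.05, beside 1645 of all 5403 genes tested. Of 16 genes of folding in the endoplasmic reticulum (ER) 1 rose. Without replicate 2 these 3 lists had 5, 3 and 5 genes called higher. Of 5 chaperones that sit on the ribosome, none rose and 2 fell. SSB2, a ribosome-bound Hsp70, had −2.69 and −1.84, a mean of −2.26 ± 0.60 (SD, n = 2) with a limma adjusted p of 0.0201. The other gene that fell, SSZ1, had −0.99 and −0.98. Without replicate 1, 1 of these 5 genes was called lower, and without replicate 2, 4 were. EGD2, a subunit of the nascent chain complex, had −2.04 and −1.14 and was not called.

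The membrane, hydrophilin and secreted stress proteins were the list with the highest share called, 14 of 17 higher and none lower, with a list median of 1.47. HSP12, a membrane-binding hydrophilin, had 3.51 and 2.83, and HSP30, a regulator of the plasma membrane proton pump, had 4.10 and 2.24. SIP18, a hydrophilin, had 2.66 and 3.11. YRO2, a relative of HSP30, had 3.31 and 2.33. All 4 lay above 2.2 on each array, and which array was higher differed between genes. YGP1, a secreted stress glycoprotein, differed between the arrays, at −0.09 and 2.40, and was not called.

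Some related genes were listed as pairs with their order already known, and in most pairs the gene listed first stood above its relative. Of 24 such pairs, 22 were measured on both arrays. In 20 of them the gene listed first stood above the other on both arrays, and in 14 it did so by more than 1 log2 unit on both. The median difference within a pair was 2.27 log2 units on replicate 1 and 1.51 on replicate 2. The first gene was called higher and its relative was not in 15 pairs. The order within these pairs was known when they were listed, so the counts describe the pairs and test nothing.

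Several of these chosen pairs belong to sugar handling. HXT5, a hexose transporter of starved and stressed cells, had 3.57 and 2.98, and HXT2, a high-affinity transporter, had −2.21 and −1.84, so the 2 genes lay 5.78 and 4.82 log2 units apart. PGM2, the major phosphoglucomutase, which converts glucose 6-phosphate to glucose 1-phosphate, rose at 2.50 and 1.91, and PGM1, the minor form, fell at −1.47 and −1.62. The limma adjusted p was 0.018 for PGM2 and 0.0133 for PGM1. In the pentose phosphate pathway, which makes NADPH, GND2 rose at 4.78 and 3.21 (mean 4.0 ± 1.11, SD, n = 2, 16-fold) while GND1, encoding the same dehydrogenase, had 0.62 and 0.10. TKL2, a transketolase, rose at 2.41 and 2.25 and its relative TKL1 had −0.60 and −0.53. Of 13 pathway genes 4 rose, GND2, TKL2, SOL4 and NQM1, and 1 fell, the isomerase RKI1. ALD3, a cytosolic aldehyde dehydrogenase, had 4.36 and 3.05 against −0.90 and −0.53 for ALD6, the form that makes acetate during growth on glucose, which was not called.

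**Figure D2:**
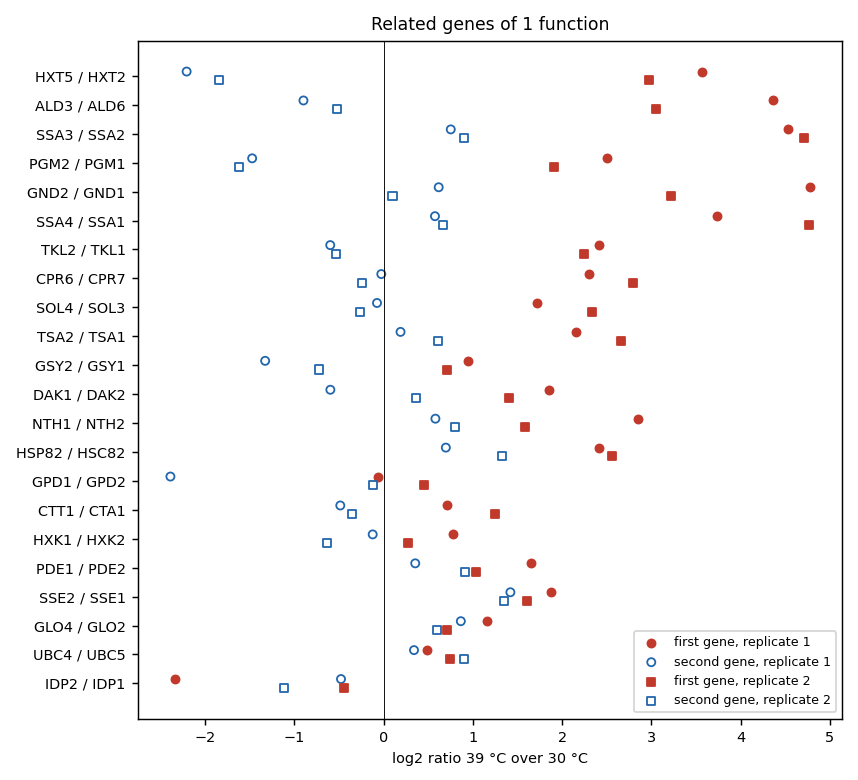
Log2 ratio of 39 °C over 30 °C for related genes of 1 function, with the first gene of each pair in filled and the second in open symbols on each replicate array. HXT5 and HXT2 lie 5.78 and 4.82 log2 units apart, whereas SSE2 and SSE1 lie 0.45 and 0.26 apart.

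Storage and central carbon genes were mostly not called, which held for all genes tested as well. Beside the background of 4.28%, the share called higher was 50% for trehalose, 16.7% for glycerol and 11.5% for the citric acid cycle. It was 8.6% for the respiratory chain, 6.5% for glycolysis and fermentation and 0 for glycogen. Beside 4.79%, the share called lower was 7.7% for glycogen, 5.7% for the respiratory chain and 0 for the rest. Of 6 trehalose genes 3 rose, and both arms of the cycle were among them. TPS1, which makes trehalose 6-phosphate, had 1.73 and 1.5, while the trehalases NTH1 and ATH1, which break trehalose down, had 2.85 and 1.59, and 1.01 and 1.08. TPS2, the phosphatase that completes synthesis, had −0.39 and 0.25 and was not called. Of 13 glycogen genes none rose and 1 fell, the minor glycogen synthase GSY1 at −1.33 and −0.72. Without replicate 1, 1 glycogen gene was called higher and 0 lower, and without replicate 2, 2 higher and 3 lower. Of 31 genes of glycolysis and fermentation 2 rose (GPM2 and PFK26) and of 12 glycerol genes 2 rose (GCY1 and DAK1). In the citric acid cycle 3 of 26 genes rose, and they encode neighbouring steps from citrate to 2-oxoglutarate. ACO1, aconitase, had 1.70 and 1.70, and the subunits of the NAD-dependent isocitrate dehydrogenase, IDH1 and IDH2, had 1.30 and 1.35, and 1.81 and 2.43. Of 35 genes of the respiratory chain and ATP synthase 3 rose, the external NADH dehydrogenases NDE1 and NDE2 and the ATPase stabiliser STF2, and 2 fell, COX4 and ATP20. Without replicate 2 the list medians were −0.14 for glycolysis and fermentation, 0.02 for the citric acid cycle and −0.05 for the respiratory chain.

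Of 9 aldehyde dehydrogenases 4 rose and none fell, with a list median of 0.99. They were ALD3, given above, ALD2, its neighbouring copy (3.11 and 2.71), the mitochondrial ALD4 (2.55 and 1.95) and UGA2, which acts on succinate semialdehyde (1.08 and 1.26). Of 25 glutathione genes 5 rose and none fell, led by GRE3, an aldose reductase that acts on methylglyoxal, at 2.85 and 1.96, and GPX1, a peroxidase, at 1.74 and 1.91. GRX1, a glutaredoxin, had 1.40 and 1.45. Of 13 thioredoxins and peroxiredoxins 2 rose, TSA2 at 2.16 and 2.66 and the mitochondrial TRX3 at 0.97 and 0.84, and 1 fell, the cytosolic TRX1 at −1.47 and −1.12. TSA1, the abundant relative of TSA2, had 0.19 and 0.61 and was not called. CTT1, the cytosolic catalase, rose at 0.71 and 1.25 and was the only one of 6 catalase and superoxide dismutase genes called. CCP1, the mitochondrial cytochrome c peroxidase, had 2.68 and 0.25 and was not called. Without replicate 2, 8 glutathione genes were called higher and 2 lower.

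Of 42 proteasome genes 37 stood above 0 on both arrays and the list median was 0.70, with 7 called higher and none lower. RPN12, a subunit of the regulatory lid, had 2.41 and 1.10, and RPN1, a scaffold of its base, had 1.86 and 0.81. ECM29, which tethers core and regulatory particle, had 1.23 and 1.30. For 5 of the 7, replicate 1 gave the higher ratio. The number of proteasome genes called higher was 1 with array weights, 0 with the replicate block and 18 after quantile normalization. Over all genes these settings called 115, 29 and 360 higher. The list median was 0.57 without replicate 1 and 0.76 without replicate 2. Of 37 genes of ubiquitin and the segregase Cdc48, 30 stood above 0 on both arrays and 3 rose, the zinc finger genes TMC1 (1.5 and 2.04) and CUZ1 (0.85 and 1.28) and the shuttle DSK2 (1.19 and 0.82). There were 5 called higher without replicate 1, and 9 higher and 3 lower without replicate 2. RPN4, the activator of proteasome genes, had a value on replicate 2 only, 0.04, and was not tested.

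In the vacuole, the yeast counterpart of the lysosome, 4 of 11 proteases and inhibitors rose and none fell. PAI3, an inhibitor of the vacuolar proteinase A, had 1.98 and 2.03, a mean of 2.0 ± 0.03 (SD, n = 2). APE1, an aminopeptidase brought to the vacuole by selective autophagy, had 1.42 and 1.47. PRB1, the proteinase B gene, differed between the arrays at −2.28 and −0.38 and was not called. Of 33 autophagy genes 3 rose, ATG8, which coats the autophagosome membrane (1.14 and 1.23), ATG34 and ATG33. Without replicate 1, 1 autophagy gene was called higher, and without replicate 2, 5 higher and 2 lower.

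Of 26 purine and one-carbon genes 9 rose, beside the background of 4.28%, and 1 fell. ADE17, which encodes the enzyme of the last steps to inosine monophosphate, had 3.23 and 2.60, with a mean of 2.92 ± 0.45 (SD, n = 2), 7.55-fold, and a limma adjusted p of 0.00978. MTD1 and SHM2, which move one-carbon units on folate, had 3.16 and 2.61, and 1.86 and 2.01. GCV1, GCV2 and GCV3, subunits of the glycine decarboxylase that feeds folate, had 3.24 and 2.40, 1.44 and 1.61, and 1.24 and 1.12. Genes of different arms of the pathway were thus high on both arrays. ADE2, of the synthetic pathway, had 2.82 and 1.95, HPT1, of purine salvage, 1.51 and 1.25, and ADE12, of the AMP branch, 1.15 and 1.37. The gene that fell was IMD3, of the GMP branch, at −1.0 and −1.39. The list median was 0.20. Of the 26 genes 16 stood above 0 on both arrays and 8 below, and their mean ratios ran from −1.57 to 2.92. GCV3 and IMD3 were named after their values were seen.

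Arginine genes rose in 6 of 15 cases and none fell. CPA1, a subunit of the carbamoyl phosphate synthase of arginine synthesis, had 2.91 and 2.39, and ARG3, which makes citrulline, had 2.55 and 2.54. ARG8 and ARG1, further steps of synthesis, had 1.87 and 1.17, and 1.10 and 1.26. The remaining 2 belong to breakdown, CAR2 at 1.98 and 0.96 and the proline oxidase PUT1 at 1.75 and 1.5. CAR1, arginase, had 0.05 and −0.44. Synthesis and breakdown genes were therefore both among those that rose.

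Of 12 branched-chain amino acid genes 5 fell and 1 rose. The number called lower was 1 with array weights, 0 with the replicate block and 9 after quantile normalization. ILV3, the dihydroxyacid dehydratase, had −2.65 and −1.64, a mean of −2.14 ± 0.71 (SD, n = 2) with a limma adjusted p of 0.0194. ILV6, LEU1, ILV5 and ILV1 had −1.51 and −1.38, −0.86 and −1.65, −1.37 and −0.68, and −0.67 and −1.20. These 5 genes act in synthesis of valine, leucine or isoleucine. BAT2, the cytosolic aminotransferase that also starts their breakdown, rose at 1.72 and 1.24. Of 16 aromatic amino acid genes 2 rose and 1 fell, and the list medians were 0.13 on replicate 1 and −0.39 on replicate 2. ARO9 and ARO10, of breakdown to fusel alcohols, rose at 1.95 and 2.05, and 2.62 and 2.57, and ARO4, which opens synthesis, fell at −1.78 and −1.62.

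Among 38 genes of lysine, histidine and other amino acids 3 rose and 5 fell. CHA1, which degrades serine and threonine, had 2.77 and 1.52, and GLN1, glutamine synthetase, had 1.76 and 0.89. THR1 and HOM2, of threonine synthesis, had −1.26 and −1.26, and −1.37 and −1.17. Without replicate 1 this list had 2 genes called higher and 3 lower, and without replicate 2, 9 and 6. Of 33 genes of sulfur, methionine and S-adenosylmethionine none rose and 8 fell, with 6 called lower without replicate 1, and 11 lower and 3 higher without replicate 2. SAM1 and SAM2, the near-identical S-adenosylmethionine synthetases, had −2.03 and −2.41, and −1.75 and −2.29. SAH1 and ADO1, which clear the products of methyl transfer, had −1.21 and −1.43, and −1.46 and −1.52. These 4 genes of the methyl cycle lay below −1.2 on each array.

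**Figure D3:**
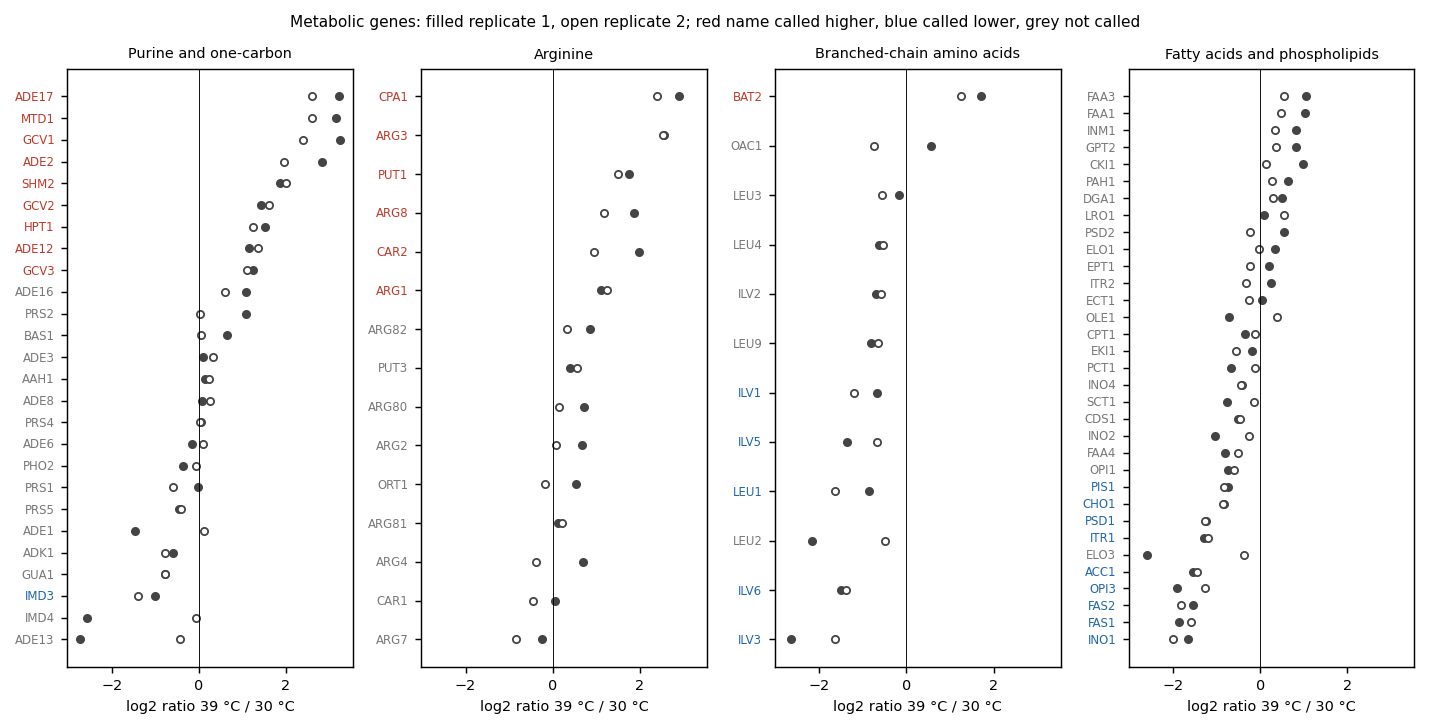
Log2 ratio of 39 °C over 30 °C for the genes of metabolic lists, with replicate 1 in filled and replicate 2 in open symbols and the gene's name coloured by its call. ADE17 and MTD1 lie between 2.60 and 3.23 on both arrays, and FAS1, FAS2 and ACC1 between −1.45 and −1.88.

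Genes of fatty acid and phospholipid synthesis fell in 9 of 33 cases and none rose. FAS1 and FAS2, the subunits of fatty acid synthase, had −1.88 and −1.58, and −1.54 and −1.82, and ACC1, acetyl-CoA carboxylase, which supplies them, had −1.54 and −1.45. INO1, which makes inositol phosphate from glucose 6-phosphate, had −1.66 and −2.0, a level at 39 °C of 0.281 of that at 30 °C. All 4 lay below −1.4 on each array. The phospholipid genes OPI3, PSD1 and CHO1 and the inositol transporter ITR1 fell as well, between −0.84 and −1.92. Without replicate 1, 7 genes of the list were called lower, and without replicate 2, 14 lower and 3 higher. Of 26 sterol genes 1 fell (ERG20), and of 27 sphingolipid genes 1 rose (YDC1, a ceramidase). Without replicate 1 neither list had a gene called, and without replicate 2 the sterol list had 7 higher and 2 lower and the sphingolipid list 3 and 1.

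In the secretory pathway, 4 of 32 genes of ER translocation and glycosylation fell and none rose, while 23 of the 32 stood below 0 on both arrays. DPM1 and PMT4, of protein mannosylation, had −1.24 and −0.95, and −1.06 and −1.10. ALG3, of the lipid-linked sugar donor, had −0.96 and −1.21, and SSS1, of the translocation channel, −0.75 and −0.76. Without replicate 1, 1 of the 32 was called lower, and without replicate 2, 9 were. Of 25 cell wall mannoproteins 5 rose and 2 fell. PST1, a GPI-anchored wall protein of the integrity response, had 2.52 and 2.56, HSP150, a secreted PIR protein, 2.18 and 2.46, and SED1, an abundant wall protein, 2.30 and 1.69. The 2 that fell were TIR3 (−0.98 and −1.26) and FLO9. Without replicate 1 the mannoproteins had 6 genes called higher and 1 lower, and without replicate 2, 7 and 8.

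Ribosomal protein genes of the cytosol were lower on both arrays in nearly all cases, and most of them fell. Of 76 large-subunit genes 50 fell and 73 stood below 0 on both arrays, with list medians of −1.62 and −1.44. Of 54 small-subunit genes 36 fell and 51 stood below 0 on both, with medians of −2.0 and −1.45. With array weights 28 large-subunit and 16 small-subunit genes were called lower. Quantile normalization gave 64 and 47, and the replicate block 0 and 0. None rose in either list, and of the 30 genes with the lowest mean among those called, 20 encoded ribosomal proteins. RPL9A had −2.96 and −2.31, a mean of −2.64 ± 0.46 (SD, n = 2), or 0.161 of the level at 30 °C, with a limma adjusted p of 0.018. RPS8B had −2.69 and −2.04. At the upper end of these lists, RPL22B had 0.60 and 0.04 and RPS9A 0.20 and 0.40. RPS17A had 1.69 and −1.95, and RPS14B 1.49 and −0.62, so their arrays disagreed in sign. RPL22B, RPS9A and RPS14B were named after their values were seen.

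The other lists of the translation machinery had lower shares called. Of 50 translation factors 10 fell and none rose. EFT1 and EFT2, identical-protein copies of elongation factor 2, had −2.33 and −1.61, and −1.46 and −1.56, and YEF3, elongation factor 3, had −2.04 and −1.68. Of 32 aminoacyl-tRNA synthetases 8 fell and none rose. THS1, for threonine, had −1.56 and −1.48, and SES1, for serine, −1.43 and −1.62. The list medians were −0.34 for factors and −0.38 for synthetases, against −1.54 and −1.74 for the large and small subunit. Of 127 genes of ribosome assembly and rRNA processing 3 fell, REA1, NOP56 and DBP2, and the list median was −0.11. Of 33 subunits of RNA polymerases I and III and of 65 mitochondrial ribosomal proteins none was called. Of them 6 and 5 had an unadjusted limma p under 0.05, beside 1645 of all 5403 genes tested. Without replicate 2 the list medians were −0.01 for ribosome assembly, −0.09 for the polymerases and 0.07 for the mitochondrial ribosome.

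**Figure D4:**
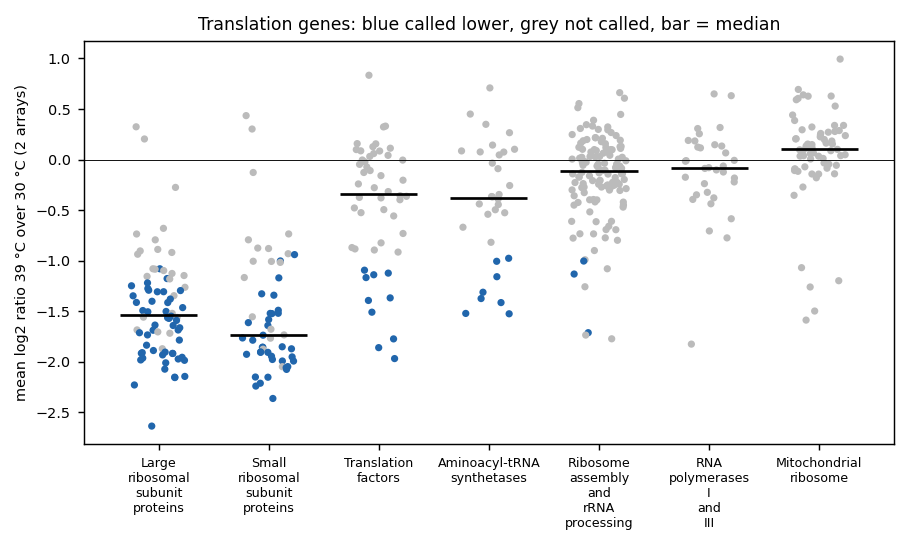
Mean log2 ratio of 39 °C over 30 °C over the 2 arrays for each gene of the translation lists, with called genes in blue and the list median as a bar. The medians are −1.54 and −1.74 for the large and small ribosomal subunits and −0.11 for ribosome assembly.

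Chromatin and cell division genes that changed were lower. Of 10 histone genes 6 fell, HTA1, HTA2, HTB1, HTB2, HHF1 and the variant HTZ1, with a list median of −1.20. HTA2 had −1.51 and −1.39, and HHF1 −1.18 and −1.46. Core histone copies are near-identical, so the 6 are not independent measurements. The number called lower was 4 without replicate 1 and 9 without replicate 2. Of 55 genes of DNA replication and nucleotide supply 5 fell and none rose, among them POL1, the catalytic subunit of DNA polymerase alpha, at −1.21 and −0.84, and CDC21, thymidylate synthase, at −0.96 and −1.44. Without replicate 1, 2 of them were called lower, and without replicate 2, 10 lower and 4 higher. Of 34 cyclins and cell cycle regulators 4 fell, CLB6, an S-phase cyclin (−1.89 and −1.5), SWI5, FKH1 and FAR1. Of 37 mating genes 4 fell, PRM6 (−2.50 and −2.06), FIG1 and the agglutinin subunits AGA1 and AGA2. Without replicate 2 the list medians were −0.25 for cyclins and −0.11 for mating genes.

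Most genes of the regulators themselves were not called, which held for all genes tested as well, of which 9.07% were called. The shares called higher and lower were 3.7% and 11.1% for stress transcription factors. For Ras and protein kinase A they were 9.5% and 4.8%, beside the background of 4.28% and 4.79%. HSF1 had 0.78 and 0.83, the same sign and nearly the same size on both arrays, with a limma adjusted p of 0.0702. MSN2 had −0.50 and −0.18, MSN4 −0.87 and −0.28, and YAP1, the oxidative stress factor, 0.53 and 0.51. Of 27 stress transcription factors 1 rose, USV1 (1.65 and 0.92), and 3 fell. TOD6, a repressor of ribosome synthesis genes, had −2.65 and −1.38, MIG2, a glucose repressor, −1.62 and −0.76, and CIN5, a relative of Yap1, −1.5 and −1.06. Without replicate 1 the factors had 0 genes called higher and 2 lower, and without replicate 2, 3 and 8. Of 21 genes of Ras and protein kinase A 2 rose, the phosphodiesterase PDE1 (1.65 and 1.04) and the cyclase-associated protein SRV2 (1.56 and 0.79), and 1 fell, the inhibitor GPB2. Without replicate 1, 1 of them was called higher and 0 lower, and without replicate 2, 3 and 4. Of the housekeeping genes, ACT1, actin, had −0.19 and −0.33 and TDH3, a glycolytic dehydrogenase, 0.11 and 0.11.

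The drug resistance, phosphate, iron and nitrogen lists had few calls in number, but their shares called higher were not below the background of 4.28%. They were 13.0% for drug resistance, 4.5% for phosphate, 9.7% for iron and 14.3% for nitrogen. The share called lower was 4.3% for drug resistance and 0 for phosphate, iron and nitrogen, beside 4.79%. Of 23 genes of the plasma membrane ATPase and V-ATPase 0 rose and 1 fell. Of 23 pleiotropic drug resistance genes 3 rose, the exporters TPO3, AQR1 and PDR5, and 1 fell, the exporter QDR2 at −1.98 and −2.04. Of 22 phosphate genes PHM8, a lysophosphatidic acid phosphatase, rose at 2.44 and 1.82. Of 31 iron genes SMF3, ENB1 and ISU1 rose, with 0 called without replicate 1 and 8 higher and 2 lower without replicate 2. Of 21 nitrogen catabolite and allantoin genes DAL1, UGA1 and UGA2 rose, between 1.08 and 1.38. Without replicate 2, the drug resistance list had 6 genes called higher and 2 lower, the phosphate list 4 and 2, and the nitrogen list 5 and 1. The 9 lists with no gene called held 261 genes. Of these 37 had an unadjusted limma p under 0.05, a smaller share than the 1645 of all 5403 genes tested. Among these lists were the 55 splicing and Lsm genes, 36 cytoskeleton genes, 18 genes of the high-osmolarity pathway and the 22 seripauperins of the PAU family. The PAU list had medians of −0.74 on replicate 1 and −0.02 on replicate 2, and 0 of its genes had an unadjusted p under 0.05. Without replicate 2 the list medians were 0.04 for splicing, 0.07 for the cytoskeleton, −0.09 for the high-osmolarity pathway and −0.74 for PAU.

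**Figure D5:**
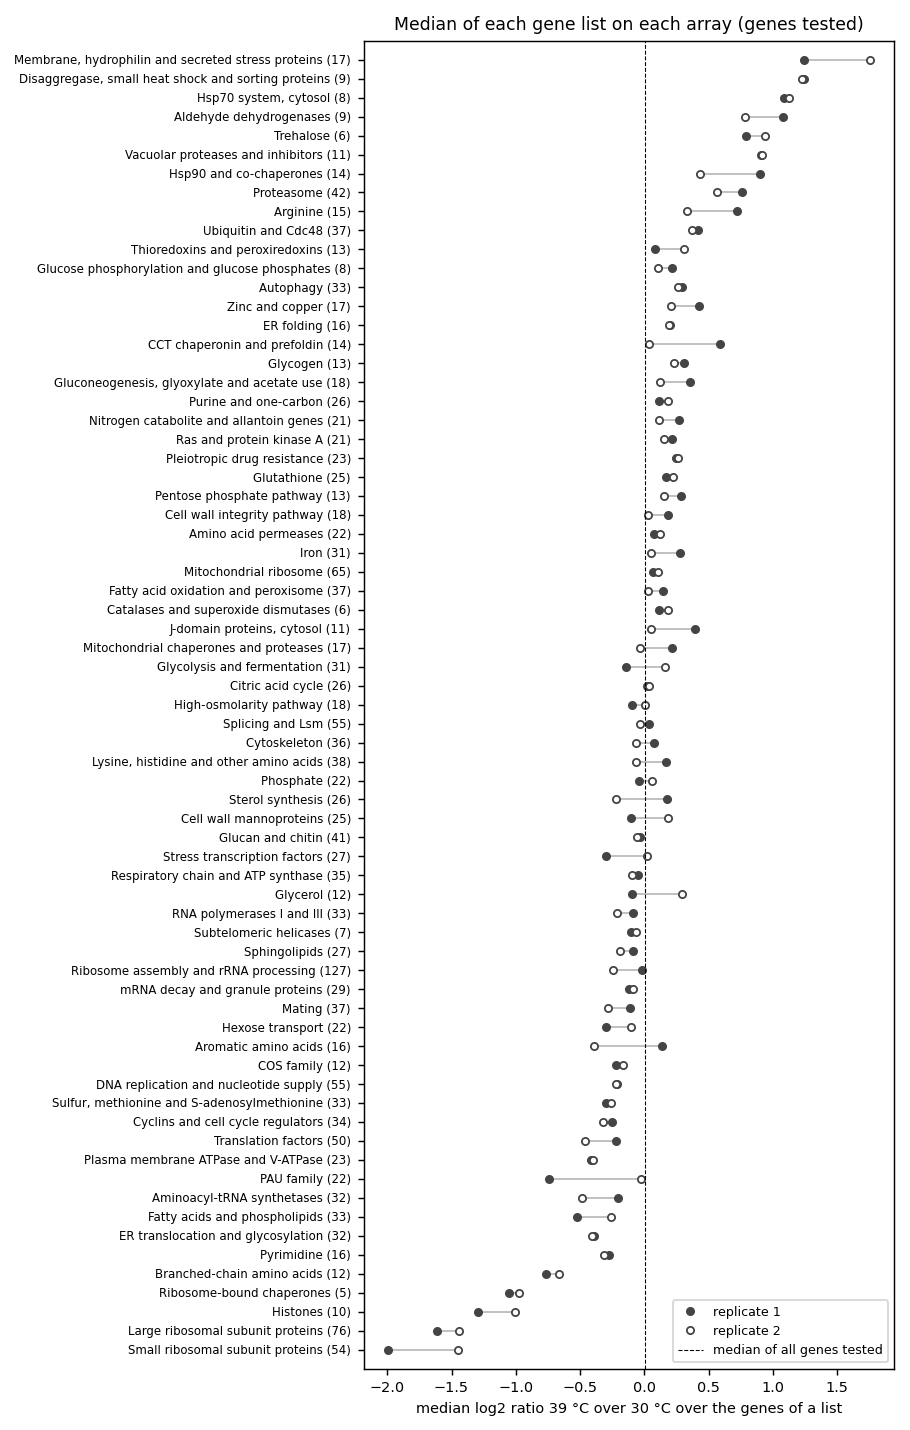
Median log2 ratio of 39 °C over 30 °C over the genes of each list on replicate 1 (filled) and replicate 2 (open), with the number of genes tested in brackets. The ribosomal protein lists lie lowest, between −1.44 and −2.0, and the membrane, hydrophilin and secreted stress proteins lie at 1.24 and 1.76.

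Some genes differed strongly between the arrays. SKA1 had 5.67 and −0.11, VID24, a factor that marks a gluconeogenic enzyme for breakdown, −2.24 and 1.54, and PEX21, a peroxisomal import factor, −2.12 and 1.05. None of these was called. SKA1 had the highest ratio of all genes on replicate 1 and a ratio near 0 on replicate 2. Of the 74 genes not tested, 69 had a value on 1 heat shock array only and 5 on none. The proteasome core gene PRE1 was among the former, at −2.89 on replicate 1, a value with no replicate.

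Set beside the celastrol arrays, which have their own DMSO controls, 233 of the 259 genes that fell (90.0%) were below 0 on both celastrol arrays, against 49.6% of all genes tested. Of the 231 genes that rose, 163 (70.6%) were above 0 on both, against 29.0% of all genes tested. The calls used a spread estimated partly from the celastrol arrays, so they favour genes whose celastrol arrays lie close together. Such genes more readily have the same sign on both, so all genes tested are not a like comparison. All 4 arrays also share the dye layout. The part of the selection and of the dye layout in these shares was not tested.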

How the data were processed

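The authors deposited, per the series' design text, ratios averaged over duplicate spots and normalized to the median signal of each array. They were read as log2 values, and the deposited files name no base. Whole-number steps fitted base 2 on heat shock replicate 1 only. Scanner files, background correction and software were not given in the sources used here. Arrays give no read depth, and their number, 2 per treatment, limits the precision.

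Probes with exactly 1 gene in the platform's annotation were kept (76 had several, 720 none), and symbols were matched to the RefSeq R64 table (5477 of 5477 genes). Exact zeros (44 and 47 on the heat shock arrays) were taken as missing, since a deposited 0 may stand for a failed spot, and probes of a gene were averaged (137 genes had several). limma 3.58.1 in R 4.3.3 (lmFit, eBayes) fitted 1 mean per treatment over all 4 arrays, with 2 residual degrees of freedom, and Benjamini-Hochberg adjustment over 5403 genes at a threshold of 0.05. The procedure was tested on simulated data with independent arrays and the same spread on every array for a gene. That test therefore does not cover the wider ratios of heat shock replicate 1 or effects shared between arrays.

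The 69 gene lists, the pairs and the comparison were chosen with earlier results of these data known. Lists overlap, and list counts are descriptions. Named genes were the 30 highest and 30 lowest called, all members of lists of up to 16 genes, otherwise the 8 called and 2 uncalled members with the largest mean, the 10 largest gaps between arrays, the 5 largest ratios on 1 array only, and a panel of 8 genes. Others named are members of the lists, chosen after their values were seen. A planned description of promoter motifs was not made, because no promoter sequences were used here. Alternatives were the fit of the heat shock arrays alone, centring, quantile normalization, zeros kept, probe rules, array weights, robust fitting, a 1.5-fold test, the replicate block and leaving out each array.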

Additional observations from a re-analysis of the deposited data

How the results depend on the processing

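The count of called genes depended on the spread used, and no alternative gave a called gene the opposite sign. Against 490 called (231 higher, 259 lower), the heat shock arrays alone gave 0 (0 and 0), with 1154 at an unadjusted limma p under 0.05. Quantile normalization gave 989 (360 and 629), so that the share called lower was larger, array weights 216 (115 and 101) and the test against a 1.5-fold change 69 (53 and 16). Leaving out 1 array gave 0 to 1582 called, 0 to 792 higher and 0 to 790 lower, with 0 when either celastrol array was left out. Centring, robust fitting, kept zeros and the probe rules gave 422 to 490. The sources used here do not say whether numbers I and II mark shared cultures or days, and each array had its own control. The differences between arrays I and II of the 2 treatments correlated at −0.31 over genes. This value cannot decide whether the numbers pair arrays. The main fit takes the arrays to vary independently, which was not tested. The replicate block gave 30 called (29 and 1). With crossed numbers, an alternative added after seeing the data, the replicate block gave 849 (320 and 529). With 1 heat shock array left out, a gene's estimate is its ratio on the other, so genes whose arrays disagree in sign changed sign. Among the named genes, PEX21, VID24 and RPS17A are examples, and none of them was called with both arrays. Without replicates 1 and 2 in turn the log2 ratio was 1.05 and −2.12 for PEX21 and 1.54 and −2.24 for VID24. For RPS17A it was −1.95 and 1.69. The cause of these differences was not tested. Signal over background is not given by ratios alone, so the reliability of dim spots is unknown.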

Other observations

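Of the genes called, 100 that rose and 75 that fell were in none of the gene lists. The following were chosen after their values were seen, apart from GPG1, ECM13 and BNA2, which are among the 30 highest. They are single genes, not a tested group. Among those that rose, BNA2, the first enzyme of NAD synthesis from tryptophan, had log2 ratios of 3.39 and 1.45 on replicates 1 and 2. PNC1, the nicotinamidase of NAD salvage, had 1.54 and 1.86, and NNR2 and NNR1, which repair hydrated NADH and NADPH, had 2.11 and 2.09, and 0.72 and 1.46. GAD1, glutamate decarboxylase, had 1.18 and 1.55. DCS2 and DCS1, of the scavenger decapping pathway, had 1.98 and 1.64, and 1.84 and 0.95. SGT2, of tail-anchored protein insertion, had 2.51 and 1.08. GPG1 had 2.60 and 2.78 and ECM13 2.33 and 2.67.

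Of the genes that fell, KAP123, an importin that carries ribosomal proteins into the nucleus, had −1.90 and −1.27, and SUB2, an mRNA export helicase, had −1.78 and −1.39. The cohesin genes SMC3 and PDS5 had −0.74 and −1.11, and −0.94 and −0.87, and the mismatch repair gene MSH6 had −1.06 and −1.23. GUK1, guanylate kinase, had −1.76 and −1.34, and PSA1, which makes GDP-mannose, had −1.29 and −0.68. YHB1, a nitric oxide dioxygenase, had −1.36 and −2.39.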
